A study of Mus musculus with 8 samples.

Results

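Chaperonins are barrel-shaped, ATP-driven machines that take an unfolded protein into a closed chamber and release it folded. The set described here holds the 10 genes of both chaperonin systems of mouse cells, out of 53655 gene symbols in the count table. Hspd1 (Hsp60) builds the barrel of the mitochondrial matrix and Hspe1 (Hsp10) its detachable lid. Tcp1 and Cct2, Cct3, Cct4, Cct5, Cct6a, Cct7 and Cct8 encode the 8 different subunits of the cytosolic chaperonin TRiC, also called CCT, whose lid is part of the subunits themselves. TRiC is known for folding actin and tubulin, which build the microvillar tuft and the microtubules of tuft cells, and proteins with propeller folds. The set was chosen on the low Hspe1 level in Chat-pos libraries, and the other 9 genes were added because they encode the rest of both machines. The differences of these genes between the groups are therefore given as descriptions. Where calls from the fit over all genes are counted among them, nothing is read from the count.

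Tuft cells sense luminal chemicals in the gut lining and are scarce there. They were sorted by flow cytometry from the small intestine of naïve mice, as cells with the epithelial antigen EPCAM, without the leukocyte antigen CD45 and with the red Il25 reporter. The 4 Chat-pos libraries came from such cells with green Chat reporter signal and the 4 Chat-neg libraries from cells without it. All 8 came from mice labelled Il25-RFP/+;Chat-GFP(Tg+), so both groups carried 1 reporter allele of Il25 and the Chat-GFP transgene; age, sex and the number of animals are not stated in the labels, and p-values measure the spread between libraries, which may in part be technical.

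Counts in named genes ran from 1757401 to 2541955 in Chat-pos and from 87642 (replicate 1) to 1176880 in Chat-neg, so the groups did not overlap in depth. Chat itself averaged 330 ± 34.1 CPM (counts per 1000000 scaled gene counts) in the Chat-pos libraries and 117 ± 22.5 CPM in the Chat-neg ones (SD, n = 4 each). The summed level of 14 tuft cell markers was 25533 to 26627 CPM in Chat-pos and 10948 to 19212 CPM in Chat-neg. Transcripts of other cells were present in both groups. Paneth cell markers summed to 59397 and 32639 CPM in Chat-pos replicates 2 and 3, to 635 and 496 CPM in Chat-pos replicates 1 and 4, and to 761 to 3561 CPM in Chat-neg. Enterocyte markers summed to 34098 to 55654 CPM in Chat-pos and 22070 to 46186 CPM in Chat-neg. Goblet cell markers summed to 308 to 1577 CPM in Chat-pos and 524 to 5527 CPM in Chat-neg, and enteroendocrine markers to 1217 to 1927 CPM in Chat-pos and 582 to 1406 CPM in Chat-neg. The enteroendocrine sum was mostly Sct, at 1206 to 1890 CPM in Chat-pos and 570 to 969 CPM in Chat-neg. The other genes of that list were too low to test. Among them Chgb had 345 CPM in Chat-neg replicate 4 and at most 2.49 CPM in Chat-pos. Intraepithelial lymphocyte markers summed to 6.22 to 301 CPM in Chat-pos and 181 to 371 CPM in Chat-neg. Stem and cycling cell markers summed to 169 to 1183 CPM in Chat-pos and 154 to 1269 CPM in Chat-neg, with the highest sums in Chat-pos replicate 3 and Chat-neg replicate 4. B or plasma cell markers and myeloid markers stayed under 45 CPM in every library.

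Hspe1 and Hspd1 lie head to head on chromosome 1 of GRCm38, Hspe1 on the plus strand at 55088132 to 55091307 and Hspd1 on the minus strand at 55077835 to 55088243. Their annotated exons overlap by 112 bp, 7.6% of the Hspe1 exon length. By the general chemistry of the kits the libraries do not mark strand, so reads in that stretch cannot be assigned to either gene by their direction. The RefSeq promoter window of Hspe1, 250 bases before to 50 after its start, shares 285 bp with 1 of the 2 windows of Hspd1. The window is shown because it is common DNA of a pair of genes whose values differed. It spans chr1:55087898-55088197 on the plus strand of GRCm38.p6, and capitals mark an unbroken run of 4 heat shock units, the repeat that heat shock factor binds, at bases -89 to -72 from the Hspe1 start.

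Hspe1: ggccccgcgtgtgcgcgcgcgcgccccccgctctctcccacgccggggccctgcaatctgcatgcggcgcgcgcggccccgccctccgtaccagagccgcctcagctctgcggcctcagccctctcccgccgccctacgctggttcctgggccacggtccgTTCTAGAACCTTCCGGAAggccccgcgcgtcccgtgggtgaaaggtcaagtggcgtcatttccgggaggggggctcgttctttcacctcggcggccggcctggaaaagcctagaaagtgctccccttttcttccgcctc

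The second start of Hspd1, chr1:55088194-55088493 on the minus strand, holds none of these units. It is shown for comparison, with a CCAAT box in capitals.

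Hspd1, second start: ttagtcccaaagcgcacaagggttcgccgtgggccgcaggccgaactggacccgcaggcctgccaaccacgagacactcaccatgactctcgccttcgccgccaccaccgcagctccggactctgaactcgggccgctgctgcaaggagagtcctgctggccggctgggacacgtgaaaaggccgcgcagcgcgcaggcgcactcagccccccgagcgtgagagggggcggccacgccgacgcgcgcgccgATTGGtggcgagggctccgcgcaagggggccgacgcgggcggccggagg

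Among TRiC genes the Cct7 window, chr6:85451255-85451554 on the plus strand, is shown as the one with the most CCAAT boxes, 3, in capitals.

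Cct7: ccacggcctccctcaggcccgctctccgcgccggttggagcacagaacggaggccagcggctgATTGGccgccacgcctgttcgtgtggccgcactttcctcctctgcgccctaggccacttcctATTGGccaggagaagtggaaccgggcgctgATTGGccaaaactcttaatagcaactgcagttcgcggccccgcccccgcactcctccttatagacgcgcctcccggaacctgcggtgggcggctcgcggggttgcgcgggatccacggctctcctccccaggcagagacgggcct

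In GENCODE M21 on GRCm38, each TRiC gene lies on a chromosome of its own. On the plus strand are Cct3 (chr3:88297116-88321767), Cct6a (chr5:129786998-129846371), Cct7 (chr6:85451514-85468475), Cct4 (chr11:22990519-23003780) and Tcp1 (chr17:12915701-12925067). On the minus strand are Cct2 (chr10:117051001-117063814), Cct5 (chr15:31590800-31601804) and Cct8 (chr16:87483326-87495873).

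The motifs were searched on both strands. A heat shock unit pair was GAANNTTC or TTCNNGAA, and overlapping matches were counted. A pair stood in 15.1% of 32851 RefSeq windows of this length, a run of 3 units in 0.603% and a run of 4 in 0.0244%, which is 8 windows. A CCAAT box, CCAAT or ATTGG, stood in 37.4% of windows and the E-box CACGTG in 7.15%. Windows were found for 9 of the 10 genes. Besides the pair on chromosome 1, a single heat shock pair matched in windows of Cct2, Cct5 and Cct6a, and CCAAT boxes matched in windows of Tcp1, Cct3, Cct6a and Cct7. Of the 968 tested genes with a heat shock pair, 3.1% were called lower and 4.13% higher in Chat-pos, with a median log2 difference of -0.02. Over the 7008 tested genes with a window 2.75% were called lower and 3.58% higher, and the median was also -0.02. A run of 3 units stood before 40 tested genes, of which 4 were called lower and 1 higher. The 4 include Hspe1, whose low level chose the set, so nothing is read from this count. Hspd1 holds such a run as well and was not called.

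Hspe1 stood at 58.5, 68.5, 67.1 and 72.8 CPM in Chat-pos replicates 1 to 4, and at 209, 169, 224 and 358 CPM in Chat-neg replicates 1 to 4. Every Chat-pos library lay below every Chat-neg library. The Chat-pos libraries lay close together, with a coefficient of variation of 9.0%, against 34.1% in Chat-neg, where replicate 4 was highest. The means were 66.7 ± 6.01 CPM in the Chat-pos libraries and 240.1 ± 81.8 CPM in the Chat-neg ones (SD, n = 4 each). The fitted log2 difference, Chat-pos over Chat-neg, was -1.86 ± 0.22 (SE, edgeR). Chat-neg replicate 1 rested on 18 reads, with an exact Poisson interval of 124 to 331 CPM (95%, counting error only), still above the Chat-pos values. In bulk libraries fewer cells that carry a transcript and less of it per cell cannot be told apart. Depth, the share of counts without a gene name and the tuft marker sum also differed between the groups without overlap. Their part in the Hspe1 value was not tested.

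Hspd1, the barrel that the Hspe1 protein closes, had 7.46, 39.0, 38.3 and 24.4 CPM in Chat-pos replicates 1 to 4, and 11.6, 21.7, 30.2 and 59.4 CPM in Chat-neg replicates 1 to 4. The groups overlapped over most of their range. Chat-pos replicate 1 was low with 12 reads, and the lowest Chat-neg value rested on 1 read, with an interval of 0.294 to 64.8 CPM. The means were 27.3 ± 14.8 CPM in the Chat-pos libraries and 30.7 ± 20.6 CPM in the Chat-neg ones (SD, n = 4 each), and the log2 difference was -0.31 ± 0.49 (SE, edgeR). That value was 0.17 ± 0.46 without Chat-neg replicate 4 and -0.95 ± 0.48 without the Paneth-rich Chat-pos replicates 2 and 3. The same omissions left Hspe1 at -1.55 ± 0.23 and -1.77 ± 0.31.

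**Figure D1:**
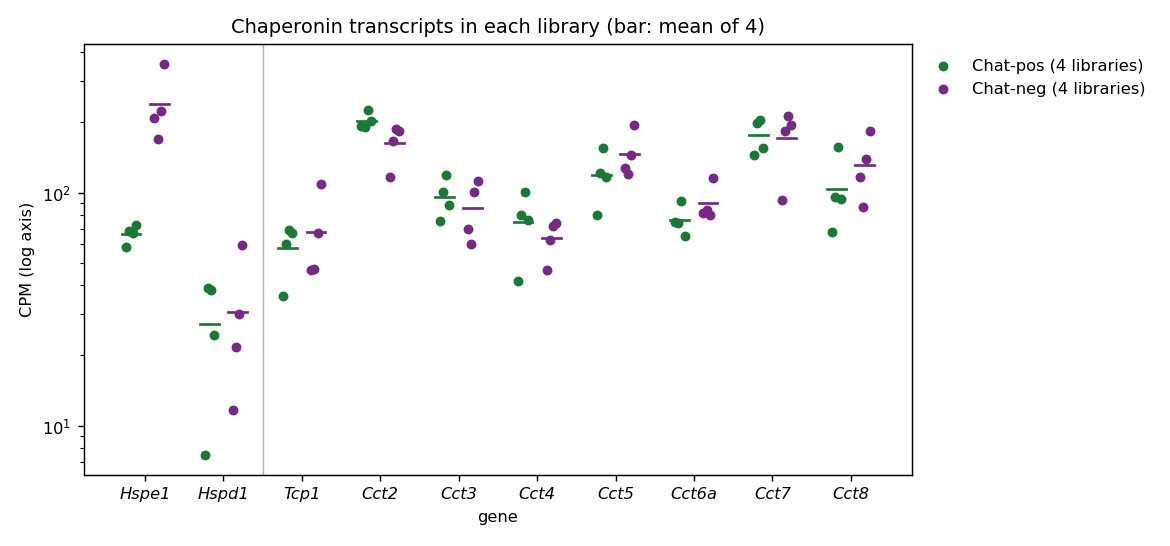
CPM on a log axis of each chaperonin gene in every library, Chat-pos left of Chat-neg, with bars at the means of 4 libraries. Hspe1 lies between 58.5 and 72.8 CPM in Chat-pos and between 169 and 358 CPM in Chat-neg, while Hspd1 overlaps between the groups.

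Within a library, scaling cancels out of the ratio of these genes. Hspe1 gave 88.7%, 63.7%, 63.7% and 74.9% of the reads of the pair in Chat-pos replicates 1 to 4, and 94.7%, 88.7%, 88.1% and 85.8% in Chat-neg replicates 1 to 4. Chat-pos replicates 2 to 4 lay below all Chat-neg libraries, and Chat-pos replicate 1 lay among the Chat-neg values. The exact binomial intervals were 57.0% to 70.0% in Chat-pos replicate 3 and 80.9% to 89.8% in Chat-neg replicate 4, the lowest library of each group. Chat-neg replicate 1 rested on 18 reads of Hspe1 and 1 of Hspd1. Its interval, 73.97% to 99.87%, overlapped that of Chat-pos replicate 4, 68.78% to 80.35%. Against the summed reads of the 8 TRiC genes, Hspe1 came to 5.98% to 8.40% in Chat-pos and 20.9% to 30.7% in Chat-neg, without overlap.

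**Figure D2:**
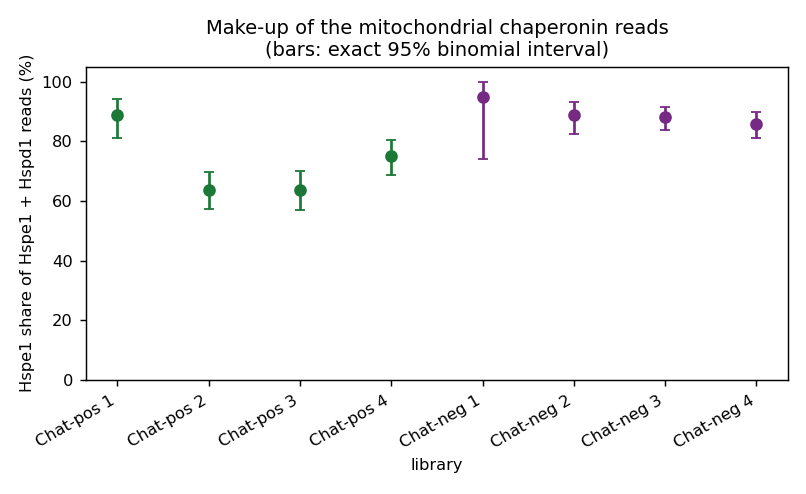
Share of Hspe1 in the reads of Hspe1 and Hspd1 together, in percent, for each library, Chat-pos at the left, with exact 95% binomial intervals. Chat-pos replicates 2 to 4 lie between 63.7% and 74.9% and Chat-pos replicate 1 at 88.7%, beside 85.8% to 94.7% in Chat-neg.

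The TRiC transcripts together made up 714, 921, 1122 and 866 CPM in Chat-pos replicates 1 to 4, and 698, 810, 1006 and 1166 CPM in Chat-neg replicates 1 to 4. The groups overlapped over nearly their whole range. The means were 906 ± 169 CPM in the Chat-pos libraries and 920.3 ± 208 CPM in the Chat-neg ones (SD, n = 4 each). The highest libraries of their groups were Chat-pos replicate 3 and Chat-neg replicate 4. Each also had its group's highest sum of stem and cycling cell markers. Of these sums, 1183 and 1269 CPM, Olfm4 gave 913 and 722 CPM. Lgr5, of the same list, was highest in other libraries, Chat-pos replicate 2 (69.4 CPM) and Chat-neg replicate 2 (62.4 CPM). The part of stem and cycling cells in the TRiC level was not tested.

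Cct2, the beta subunit, was the TRiC gene whose groups did not overlap. It had 193, 191, 225 and 202 CPM in Chat-pos replicates 1 to 4, and 116, 167, 188 and 183 CPM in Chat-neg replicates 1 to 4. The gap was narrow, with 191 CPM in the lowest Chat-pos and 188 CPM in the highest Chat-neg library, and the log2 difference was 0.26 ± 0.20 (SE, edgeR). Over all tested genes 8.58% had every Chat-pos library above every Chat-neg library, and 5.42% had every one below, as Hspe1 did.

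Cct8, the theta subunit, lay at the other end of the TRiC genes. It had 67.8, 95.4, 157 and 94.2 CPM in Chat-pos replicates 1 to 4, and 116, 86.6, 139 and 183 CPM in Chat-neg replicates 1 to 4, a log2 difference of -0.36 ± 0.26. The groups overlapped, and Chat-pos replicate 3 and Chat-neg replicate 4 were the highest of their groups. Cct5, the epsilon subunit, stood at -0.33 ± 0.22 with 80.2 to 155 CPM in Chat-pos and 120 to 196 CPM in Chat-neg.

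The remaining subunits overlapped between groups as well. Tcp1, the alpha subunit after which the complex is named, had 36.1, 60.0, 69.0 and 67.3 CPM in Chat-pos replicates 1 to 4, and 46.5, 47.1, 67.3 and 109 CPM in Chat-neg replicates 1 to 4, with a log2 difference of -0.28 ± 0.27. Cct7, the eta subunit, had 145, 198, 204 and 156 CPM in Chat-pos replicates 1 to 4, and 93.1, 184, 214 and 194 CPM in Chat-neg replicates 1 to 4, at -0.05 ± 0.21. In Tcp1 the lowest library was Chat-pos replicate 1 and the highest Chat-neg replicate 4, and in Cct7 both the lowest and the highest were Chat-neg libraries, replicates 1 and 3.

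Cct3 (gamma) was at 0.11 ± 0.23, with 75.3 to 119 CPM in Chat-pos and 59.9 to 112 CPM in Chat-neg. Cct4 (delta) was at 0.16 ± 0.25, with 41.7 to 100.2 CPM in Chat-pos and 46.5 to 73.8 CPM in Chat-neg. Cct6a (zeta) was at -0.26 ± 0.22, with 64.8 to 92.2 CPM in Chat-pos and 80.3 to 115.5 CPM in Chat-neg. The annotation used gives Cct6a no coding transcript.

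A gene was called where the Benjamini-Hochberg adjusted p of edgeR's quasi-likelihood test was below 0.05. Of 8919 tested genes 6.49% were called, 3.62% as higher and 2.87% as lower in Chat-pos. With scaling to total counts 225 genes were higher and 380 lower. All 10 chaperonin genes passed the filter on low counts. Among them 1, Hspe1, was called lower, and 0 were called higher. The low level of Hspe1 chose the set, so this count supports nothing. The 8 TRiC genes had a median log2 difference of -0.15, with 5 below 0 and 3 above, beside a median of -0.02 over all tested genes, of which 51.5% lay below 0. None of the 8 was called by edgeR, DESeq2 or limma-voom, and none had an unadjusted edgeR p under 0.05. Their standard errors, from 0.20 to 0.27, set the size of difference that could have been seen. In simulated data, over genes of all levels, edgeR recovered 0 of 53 genes changed 1.5-fold and 13 of 69 changed 2-fold. A gene without a call is therefore not shown to be unchanged. Over the 17 alternative fits Cct2 stayed above 0 (0.13 to 0.48), and Cct5, Cct6a and Cct8 stayed below 0, while Tcp1, Cct3, Cct4 and Cct7 took values on both sides.

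**Figure D3:**
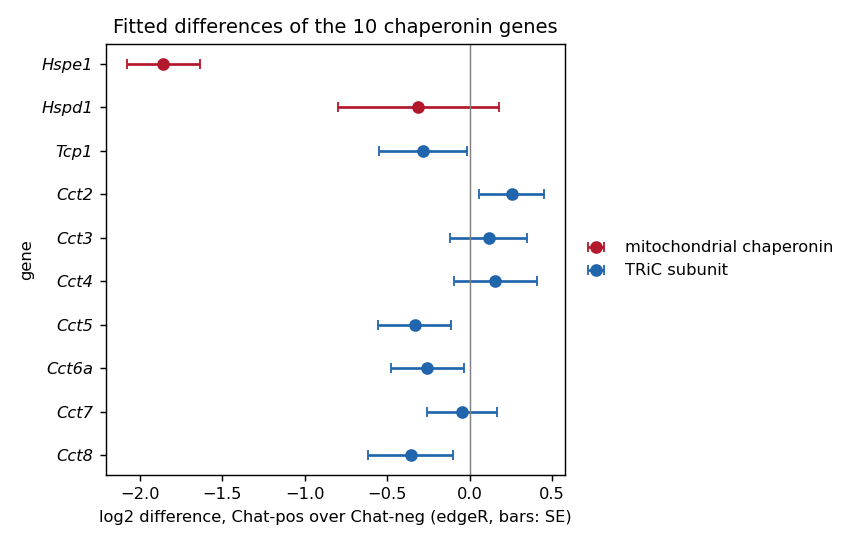
Fitted log2 difference, Chat-pos over Chat-neg, of each gene, with bars of 1 standard error. Hspe1 lies at -1.86, and the other genes lie between -0.36 (Cct8) and 0.26 (Cct2).

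The make-up of the TRiC reads was compared within libraries. Cct2 gave 22.8 ± 3.17% of TRiC reads in Chat-pos and 17.9 ± 2.19% in Chat-neg, and Cct7 19.5 ± 1.69% in Chat-pos and 18.5 ± 4.28% in Chat-neg (SD, n = 4 each). Cct5 gave 12.9 ± 1.16% in Chat-pos and 16.1 ± 1.83% in Chat-neg, and Cct3 10.6 ± 0.268% in Chat-pos and 9.26 ± 1.26% in Chat-neg. The shares of Cct3 and Cct5 did not overlap between groups, and those of the other TRiC genes, Cct2 included, did. Cct8 gave 11.2 ± 1.97% in Chat-pos and 14.2 ± 2.63% in Chat-neg. Tcp1 gave the smallest mean share in Chat-pos, at 6.37 ± 1.12%, beside 7.13 ± 1.54% in Chat-neg, where Cct4 was smallest at 6.95 ± 0.596%. Shares of a fixed sum move one another, so they are given as a description.

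To compare levels between genes, CPM were divided by transcript length, since a longer transcript yields more fragments. This measure was not used to choose the set. Per kb of all annotated exons the order was Hspe1 (84.6 CPM per kb, geometric mean of 8 libraries), Cct2 (71.2), Cct5 (47.0), Cct8 (36.6), Cct7 (25.1), Cct6a (23.0), Cct4 (16.2), Cct3 (14.1), Tcp1 (12.1) and Hspd1 (9.83). The proteins of the complex are built in at 1 copy of each subunit per ring, while the transcripts of Cct2 and Tcp1 lay 2.55 apart on the log2 scale of CPM per kb of exons and 1.90 apart per kb of the longest coding transcript. Of the 28 pairs of TRiC genes, 25 differed in level per kb inside libraries (exact two-sided sign-flip permutation test over 8 libraries, adjusted over all 45 pairs of the 10 genes). Neighbours in the order of all 10 genes that did not pass were Hspe1 and Cct2 (exact permutation test, adjusted p = 0.516), Cct7 and Cct6a (exact permutation test, adjusted p = 0.423), Cct4 and Cct3 (adjusted p = 0.0772), Cct3 and Tcp1 (adjusted p = 0.109), and Tcp1 and Hspd1 (adjusted p = 0.147).

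Hspe1 exceeded Hspd1 in all 8 libraries, by 3.10 ± 1.06 on the log2 scale of CPM per kb (SD, n = 8; exact two-sided sign-flip permutation test, p = 0.00781, the smallest p that 8 libraries allow; adjusted p = 0.0107). Per kb of the longest coding transcript it was 3.91. The p-value covers the spread between libraries, and not reads that also fit near-identical copies of either gene. Per kb of exons the difference averaged 2.37 over the Chat-pos libraries and 3.84 over the Chat-neg libraries. Hspe1 and Cct2 changed places between groups. Hspe1 had 45.3 and Cct2 79.3 CPM per kb in Chat-pos, against 158 for Hspe1 and 63.8 for Cct2 in Chat-neg. Over all 8 libraries the difference of 0.25 ± 1.17 on the log2 scale of CPM per kb (SD) did not pass.

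The order moved with the annotated length used. Per kb of the longest coding transcript, Cct7 and Cct3 stood higher, at 69.7 and 45.4 CPM per kb, as their exons together cover 6778 bp (Cct7) and 6370 bp (Cct3) and their longest coding transcripts 2441 and 1977 bp. Cct5 (70.2) and Cct7 could then not be told apart (exact permutation test, adjusted p = 0.945). The same genes stood at the ends of the order on both scales. Hspe1 (161) and Cct2 (92.9) were at the top and Tcp1 (24.9) and Hspd1 (10.7) at the bottom. On the coding scale Hspe1 and Cct2 could not be told apart, nor could Cct4 and Tcp1 (exact permutation tests, adjusted p = 0.134 and 0.311). On that scale 24 of the 28 TRiC pairs passed. Some TRiC pairs passed on both scales in opposite directions, given here as log2 differences. Cct7 minus Cct8 was -0.544 per kb of exons and 0.563 per kb of coding transcript (exact permutation tests, adjusted p = 0.0107 and 0.027). Cct3 minus Cct6a was -0.707 and 0.42 on the same scales (exact permutation tests, adjusted p = 0.0107 and 0.027). The test measures the spread between libraries and takes the lengths as given. Cct6a entered the coding scale with its longest transcript, 2454 bp, which is not annotated as coding, and its pairs on that scale rest on this length.

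**Figure D4:**
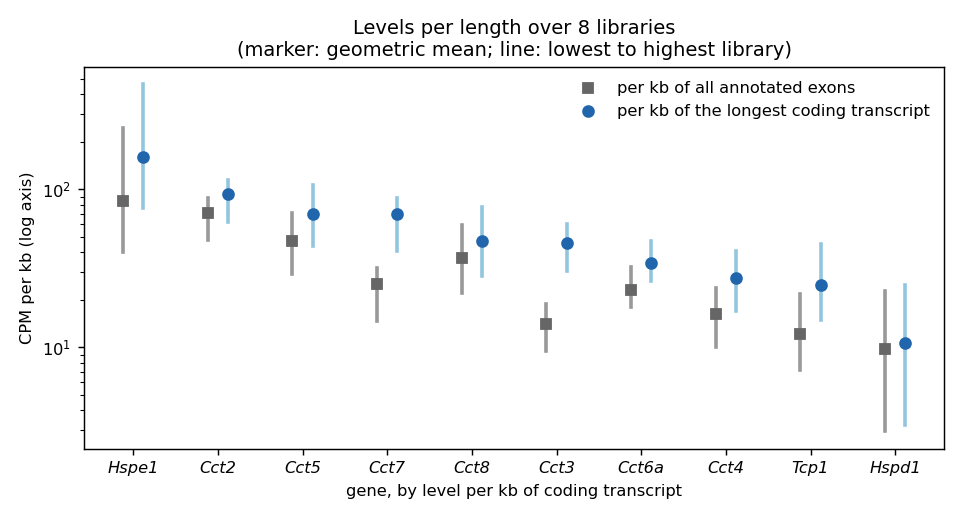
CPM per kb on a log axis for each gene over the 8 libraries, with squares for the length of all exons, circles for the longest coding transcript (for Cct6a its longest transcript) and lines from the lowest to the highest library. Hspe1 spans 39.9 to 243 CPM per kb of exons and Hspd1 2.94 to 22.8, and Cct2 is the highest TRiC gene on both scales.

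Hspe1 has the shortest transcript of the set, 964 bp at most, beside 1853 bp (Cct5) to 3884 bp (Cct7) for the other genes. Calls moved with transcript length over the whole table. Of 543 tested genes with no transcript over 1000 bp, 11.6% were called lower and 5.89% higher in Chat-pos. All genes were split by their longest annotated transcript, which need not be the one expressed, into 4 bins of nearly equal number. The first bin holds these short genes. Shares called lower were, shortest first, 5.27%, 2.12%, 1.94% and 2.07%. The shares called higher in the same bins were 6.35%, 3.92%, 2.25% and 1.85%, so calls in both directions were most frequent in the shortest bin. Within the 543 short genes 19 had a log2 difference below that of Hspe1, as had 49 of all 8919. The part of length in the Hspe1 value was not tested.

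**Figure D5:**
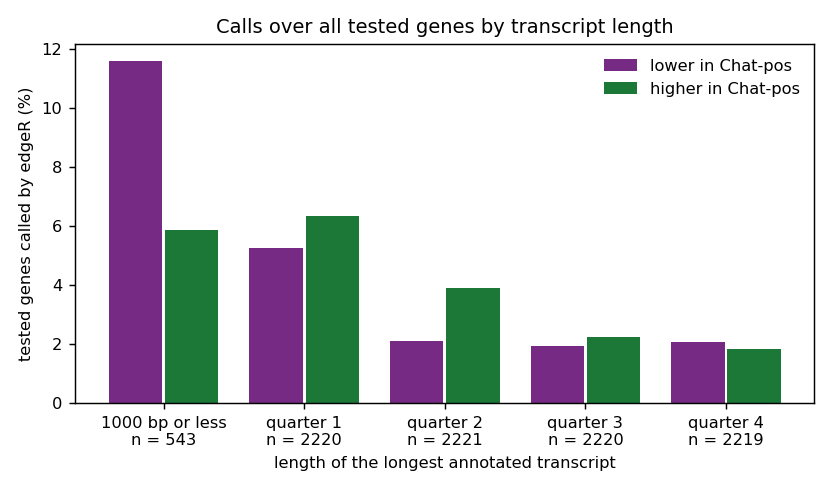
Percent of tested genes called lower (left bar) and higher (right bar) in Chat-pos by edgeR, for genes with no transcript over 1000 bp and for 4 bins of all genes by longest transcript, nearly equal in number, shortest first. The share called lower is 11.6% in the short genes and 2.12% or less in bins 2 to 4, and the share called higher is 6.35% in bin 1 and 1.85% in bin 4.

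The genes whose profile over the 8 libraries was most like that of Hspe1, out of 8006 with a mean of at least 10 CPM, were Rpl22, Mrpl23, Mrps28, Rps15a and Rpl10a. Rpl22, Rps15a and Rpl10a encode proteins of the cytosolic ribosome, and Mrpl23 and Mrps28 of the mitochondrial one; how many such genes the candidates hold was not counted. Their centred log2 profiles differed from that of Hspe1 by 0.28 (Rpl22) to 0.35 (Rpl10a), as a root mean square. Rpl22 had 65.9, 60.9, 56.2 and 59.3 CPM in Chat-pos replicates 1 to 4, and 128, 180, 151 and 287 CPM in Chat-neg replicates 1 to 4. The Chat-pos values lay below the Chat-neg values and Chat-neg replicate 4 was highest, a pattern that the choice by likeness to Hspe1 fixes. Hspd1 ranked 3948 in the same list, at 1.06, and the TRiC genes from 780 (Cct5) to 4320 (Cct2). The profiles most like the mean of the TRiC genes were those of Jmjd6, Lta4h, Pak1ip1, Rad17 and Rabgef1, with differences from 0.09 to 0.12 and log2 differences between the groups from -0.20 to 0.08. Copies of these genes were not searched. The likenesses describe 8 libraries that differ in depth and group.

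Further genes of the folding pathways were read from lists, whose counts stand beside 2.87% lower and 3.62% higher over all tested genes. In the list of mitochondrial matrix folding 2 of 9 tested genes fell and 0 rose, with a median log2 difference of -0.56. Hspa9, the matrix Hsp70 that passes imported proteins to the Hsp60 barrel, had 19.9, 40.3, 47.2 and 37.0 CPM in Chat-pos replicates 1 to 4, and 58.2, 85.4, 59.6 and 124 CPM in Chat-neg replicates 1 to 4. The groups did not overlap, and the log2 difference was -1.22 ± 0.27 (edgeR adjusted p = 0.00657). Without Chat-neg replicate 4 it was -0.92 and no longer passed. Dnajc15, a J protein of the inner membrane, averaged 73.0 ± 21.4 CPM in the Chat-pos libraries and 128 ± 30.5 CPM in the Chat-neg ones (SD, n = 4 each; log2 difference -0.83 ± 0.24, edgeR adjusted p = 0.0289). Its call was not made by DESeq2 or limma-voom. It was also lost without Chat-pos replicate 1 (-0.74) or 3 (-0.67), without Chat-neg replicate 3 (-0.64) or 4 (-0.75), without both Paneth-rich libraries (-0.66) and with no filter on low counts (-0.60).

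Of 21 tested genes of mitochondrial import 1 fell and 0 rose, with a median of -0.33 and 17 below 0. Tomm5, a small subunit of the outer membrane channel, averaged 27.1 ± 2.63 CPM in the Chat-pos libraries and 55.5 ± 29.1 CPM in the Chat-neg ones (SD, n = 4 each; log2 difference -1.19 ± 0.28, edgeR adjusted p = 0.00833). Its groups overlapped through Chat-neg replicate 1, and it no longer passed when Chat-neg replicate 3 (-1.06) or 4 (-0.92), both Paneth-rich libraries (-1.12) or the filter on low counts (-0.98) was left out.

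Among clients of TRiC, 1 of 10 tested actin and tubulin genes fell and 0 rose, with a median of -0.15. Tubb5, a beta tubulin, averaged 65.2 ± 15.6 CPM in the Chat-pos libraries and 122 ± 44.2 CPM in the Chat-neg ones (SD, n = 4 each; log2 difference -0.94 ± 0.24, edgeR adjusted p = 0.0146). It no longer passed without Chat-pos replicate 4 (-0.86), Chat-neg replicate 2 (-0.95), Chat-neg replicate 4 (-0.62) or the filter on low counts (-0.71). In the heat shock list 1 of 17 fell and 0 rose, with a median of -0.18. At an unadjusted edgeR p under 0.05, 5 of these genes were lower and 1 higher. DESeq2 and limma-voom each called 2 of them lower, Hsp90aa1 among them, and 0 higher. Hsp90aa1, the inducible cytosolic Hsp90, had 288 ± 41.9 CPM in the Chat-pos libraries and 449.9 ± 85.3 CPM in the Chat-neg ones (SD, n = 4 each; -0.66 ± 0.21, edgeR adjusted p = 0.049), close to the threshold. Of the 8 fits with 1 library left out it passed in those without Chat-pos replicate 1 or Chat-neg replicate 1, and the others gave -0.67 (without Chat-neg replicate 2) to -0.51 (without Chat-neg replicate 3). It was also not called with no filter on low counts (-0.43), with a filter of 5 CPM in 4 libraries (-0.63) or without both Paneth-rich libraries (-0.44).

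The remaining lists held 45 tested genes without a call by edgeR, DESeq2 or limma-voom, with 3 higher and 1 lower at an unadjusted edgeR p under 0.05. Prefoldin, which hands clients to TRiC, had 6 tested genes with a median of -0.05, and prefoldin-like and phosducin-like cofactors had 7 with a median of 0.00. Tubulin folding cofactors had 7 with a median of 0.09, beta-propeller and other clients 9 with -0.11, mitochondrial proteases 11 with -0.05, and the integrated and mitochondrial stress response 5 with -0.18. The TRiC paralogues Cct6b and Cct8l1 were too low to test, with 0.00 to 1.89 CPM together in Chat-pos and 0.00 to 11.6 CPM in Chat-neg. Over all lists 5 of 102 tested genes outside the set were called lower and 0 higher, beside 2.87% and 3.62% of all tested genes, with 15 lower and 5 higher at an unadjusted edgeR p under 0.05. DESeq2 called 5 lower and limma-voom 6, and neither called any higher. Without Chat-neg replicate 4 the number called lower was 0, while leaving out Chat-neg replicate 1 gave 8, and leaving out replicate 3 of either group gave 3.

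Several counts could take reads from other genes. Tcp1 overlaps exons of Mrpl18 and Acat3 on the opposite strand, by 141 and 571 bp, Cct6a overlaps Psph by 452 bp, Cct7 overlaps Pradc1 by 214 bp, and Cct8 overlaps Usp16 by 192 bp. Mrpl18 had a log2 difference of -0.40 ± 0.21, Pradc1 -0.04 ± 0.28 and Usp16 -0.08 ± 0.26, and none of these passed (edgeR adjusted p = 0.276, 0.961 and 0.902). Acat3 had 0 counts, and Acat2, which matched 445 bp of Tcp1 at 98.7%, stood at 0.00 ± 0.35 (edgeR adjusted p = 1.00). Besides the stretch shared with Hspd1, Hspe1 had partial copies at 90% identity or more over at least 74 bp. Of these Hspe1-ps1, Hspe1-ps2 and Hspe1-ps5 had 1 read each over all libraries, beside 1195 for Hspe1. The closest copy, AC117239.2, matched 515 bp at 99.0% and has no entry among the counted gene symbols. How reads that fit both were counted is therefore unknown, and the Hspe1 count is uncertain to that extent. Hspd1 had such copies as well, with 3 counts in all beside 328 for Hspd1. Of these Hspd1-ps3 matched 1722 bp of the 2423 bp Hspd1 transcript at 99.0% and had 0 counts. The Hspd1 count and its place in the order of levels are uncertain in the same way. Acat3 and these copies were named after their values were seen. The treatment of reads that fit several places is not stated in the labels.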

How the data were processed

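Sorted cells were lysed in SMARTer v4 reagents, amplified cDNA went into Nextera XT libraries, and sequencing gave single reads of 74 cycles, per the labels' protocols. The authors deposited raw counts per gene symbol. Per the submitters' processing notes the genome build is GRCm38; how reads were aligned and counted is not given in the sources used here. Rows without a gene name, 36 of 53806, held 58.6% to 64.6% of counts in Chat-pos and 67.8% to 88.4% in Chat-neg and were left out. Rows sharing a symbol were summed.

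Counts were tested with edgeR 4.0.16 (R 4.3.3): TMM scaling, filterByExpr, robust quasi-likelihood fit on group, Benjamini-Hochberg adjustment over 8919 genes, threshold 0.05. CPM are per 1000000 TMM-scaled gene counts, and n = 4 libraries a group. Levels per kb used a pseudocount of 0.5, GENCODE M21 lengths, and exact sign-flip tests (scipy 1.17.1), adjusted over 45 pairs. Copies were sought with blastn 2.17.0. Promoter windows are from RefSeq, GRCm38.p6. Alternatives tried were scaling by RLE, upper quartile or total count, 2 other filters, DESeq2 1.42.0, limma 3.58.1 (voom), a replicate block, each library left out, and Chat-pos replicates 2 and 3 left out. The edgeR fit was tested on simulated data. It recovered 0 of 53 genes changed 1.5-fold, 13 of 69 changed 2-fold and 62 of 70 changed 4-fold. The 10 genes, the lists and the tests were chosen with earlier results of these data known. Genes named besides the 10 were the called genes of each list (up to 4), overlapping genes and copies with at least 10 counts, the 5 nearest profiles (mean of at least 10 CPM) to Hspe1 and to the TRiC mean, and Chat and other genes of the gates and marker lists. Intervals cover counting error only.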

Additional observations from a re-analysis of the deposited data

Results flagged for a closer look

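Cct6a in Chat-neg replicate 4 stood apart from its group, at 115.5 CPM beside 80.3 to 84.1 CPM in the other Chat-neg libraries. The gap was 0.892 of the group's range, beyond Dixon's 95% critical value. It was the sole value so far out among 20 sets of 4 libraries examined, 10 genes in each group, and chance gives such a value in about 1 of 20. The same library was the highest of its group in Hspe1, Hspd1, Tcp1, Cct3, Cct4, Cct5 and Cct8.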

How the results depend on the processing

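Over 17 alternative fits the log2 difference of Hspe1 ran from -1.99 to -1.55; it is a description, since this difference chose the set. The genes called lower over the whole table numbered 143 with no filter on low counts and 86 without Chat-pos replicates 2 and 3. Leaving out 1 library at a time gave 138 to 360 genes higher and 110 to 309 lower. Of the pathway genes outside the set, 5 were lower, with 9 under upper-quartile scaling, 10 under total count scaling, 1 with no filter, 2 without Chat-pos replicates 2 and 3, and 0 to 8 with 1 library left out; the causes were not tested. Total count scaling moved the median of all genes to -0.14 on the log2 scale. With no filter on low counts, which changes the genes tested, that median was -0.34.

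The replicate numbers were not taken to pair the libraries: deviations of same-numbered libraries correlated from -0.023 to 0.053. With the replicate number as a block 290 genes were higher and 230 lower, and Hspe1 stood at -1.79. Of the other genes named, Dnajc15 (-0.81) and Hsp90aa1 (-0.66) were no longer called with the block.

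Hspe1 over Hspd1 per kb ranged from 2.91 to 3.31 on the log2 scale with 1 library left out and was 3.59 per kb of the longest transcript and 3.91 per kb of the longest coding transcript. The number of TRiC pairs that differed ranged from 23 to 26 with 1 library left out. The coding length was added after the data were seen. Depth limits Chat-neg replicate 1, where TRiC genes had 4 to 11 reads each.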
